A study of Homo sapiens with 6 samples.

Results

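NRF2, the transcription factor encoded by NFE2L2, was followed here through 9 genes: the factor, its inhibitor KEAP1, and 7 genes known as its antioxidant and detoxification targets (NQO1, TXNRD1, SRXN1, PGD, AKR1C1, AKR1B10 and OSGIN1). They were chosen by gene name, and all 9 are among the 32078 named genes of the count table. The libraries are poly(A) RNA of PANC-1, a human pancreatic carcinoma line: 3 of cells treated with extracellular vesicles from cancer-associated fibroblasts (EV libraries), and 3 of cells labelled as untreated (control libraries). The labels state no dose or duration of the vesicle treatment, and the extraction protocol describes vesicle pretreatment for the controls as well, so the groups rest on titles and treatment labels. The labels do not say whether replicates are separate cultures. The p-values therefore set the difference between groups against the variation among these libraries, and that variation may be technical.

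In unstressed cells KEAP1 holds NRF2 and presents it to a ubiquitin ligase built on CUL3 and RBX1, which marks it for destruction. Electrophiles and oxidants modify KEAP1, NRF2 accumulates, pairs with small MAF proteins and binds antioxidant response elements near genes for thioredoxin and glutathione recycling, NADPH supply and reductases. Because control of NRF2 is largely at the protein level, mRNA of NFE2L2 is a limited guide to its activity. The pathway is often raised in pancreatic carcinoma.

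Libraries held 21669757 to 27134375 counts in the EV group and 23646239 to 27535620 counts in the control group. The epithelial keratin genes KRT8, KRT18 and KRT19 were abundant in all 6 libraries, whereas EPCAM and CDH1 had 0 counts in each and KRT7 did not exceed 0.366 CPM, the count after scaling each library to the same effective size. KRT19 was lower in EV libraries (log2 fold change -0.48, edgeR, adjusted p = 5.78e-06), while KRT8 (0.14) and KRT18 (0.11) did not pass. Of 10 fibroblast markers listed, 9 were in the table, and their summed level was 199 to 219 CPM in EV libraries against 120 to 146 CPM in control libraries, most of it COL1A2. The listed markers did not move together. COL1A2 was higher in EV libraries (log2 fold change 0.71), whereas ACTA2 was lower, at 2.79 ± 0.676 CPM in EV libraries and 5.23 ± 0.0418 CPM in control libraries (SD, n = 3 each; edgeR, adjusted p = 0.000233). COL3A1 did not pass (0.10), and PDGFRB, at no more than 0.0804 CPM in EV libraries and 0.477 CPM in control libraries, was too low to test. DCN, LUM and THY1 were at 0 in all libraries, which allows up to 0.139 CPM each for counting error alone. The part of these markers in the results below was not tested.

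Promoter windows of the members were searched for the antioxidant response element. Both TXNRD1 windows are shown whole, because TXNRD1 had the largest change and 3 matches, and for KEAP1, PGD and OSGIN1 the match is shown with 10 bases on each side. Windows run from 250 bases before to 50 bases after a transcript start, with sequences from RefSeq (GRCh38.p14), and windows were found for 8 members and not for AKR1B10. The core TGACNNNGC was searched on both strands, together with the AP-1 core TGACTCA, which lies inside the first motif where NNN is TCA. Capitals mark matches, each sequence reads 5′ to 3′ on the gene's strand, and a match on the other strand appears as GCNNNGTCA.
TXNRD1, upstream start, chr12:104215529-104215828, plus strand: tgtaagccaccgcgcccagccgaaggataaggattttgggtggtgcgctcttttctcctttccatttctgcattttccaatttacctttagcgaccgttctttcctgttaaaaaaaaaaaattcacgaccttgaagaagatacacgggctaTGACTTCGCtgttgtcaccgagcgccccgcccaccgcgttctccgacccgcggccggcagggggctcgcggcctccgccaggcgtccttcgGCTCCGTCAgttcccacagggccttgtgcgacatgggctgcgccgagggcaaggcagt
TXNRD1, downstream start, chr12:104286782-104287081, plus strand: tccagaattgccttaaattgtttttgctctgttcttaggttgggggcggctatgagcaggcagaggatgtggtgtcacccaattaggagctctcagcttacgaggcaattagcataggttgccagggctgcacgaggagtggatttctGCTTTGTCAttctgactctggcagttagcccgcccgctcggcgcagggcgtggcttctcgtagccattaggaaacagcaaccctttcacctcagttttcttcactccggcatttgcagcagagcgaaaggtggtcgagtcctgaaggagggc
KEAP1, first match, chr19:10502807-10502835, minus strand: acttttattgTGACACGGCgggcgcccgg
KEAP1, second match, chr19:10502784-10502812, minus strand: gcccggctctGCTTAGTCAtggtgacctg
PGD, chr1:10398853-10398881, plus strand: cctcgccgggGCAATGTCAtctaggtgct
OSGIN1, AP-1 core, chr16:83953133-83953159, plus strand: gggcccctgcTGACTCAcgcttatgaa

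The TXNRD1 matches begin 99 and 8 bases before the upstream start and 102 bases before the downstream one. Those of KEAP1 begin 54 and 31 bases before 1 of its 2 starts, and that of PGD 201 bases before its start. TGACNNNGC was thus found in windows of 3 of 8 members, against 16.1% of the 27305 genes with a window, and TGACTCA in 1 of 8 members (OSGIN1), against 6.05% of genes. The windows of NFE2L2, NQO1, SRXN1, AKR1C1 and OSGIN1 held no TGACNNNGC. Sequence outside the windows was not searched, so these genes may hold the motif elsewhere. A match describes letters only, and 2 of the 3 genes holding it, KEAP1 and PGD, did not pass the test below.

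In EV libraries the mRNAs of NFE2L2, TXNRD1, SRXN1 and OSGIN1 fell, and none of the 9 rose, whether by edgeR, also at an unadjusted p under 0.05, or by DESeq2 or limma-voom. KEAP1, NQO1, PGD and AKR1C1 did not pass, and AKR1B10 had no counts. The 4 called members make up 4 of 8 tested, close to the 40.9% of all 14670 tested genes called in either direction. All 4 were lower, a larger share than the 20.7% of all tested genes called lower. The members were chosen with earlier results of these data known, so these shares are a description only. The median log2 fold change of the tested members was -0.19, against -0.01 over all genes. In bulk RNA fewer cells expressing a gene and less RNA per cell cannot be told apart.

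**Figure D1:**
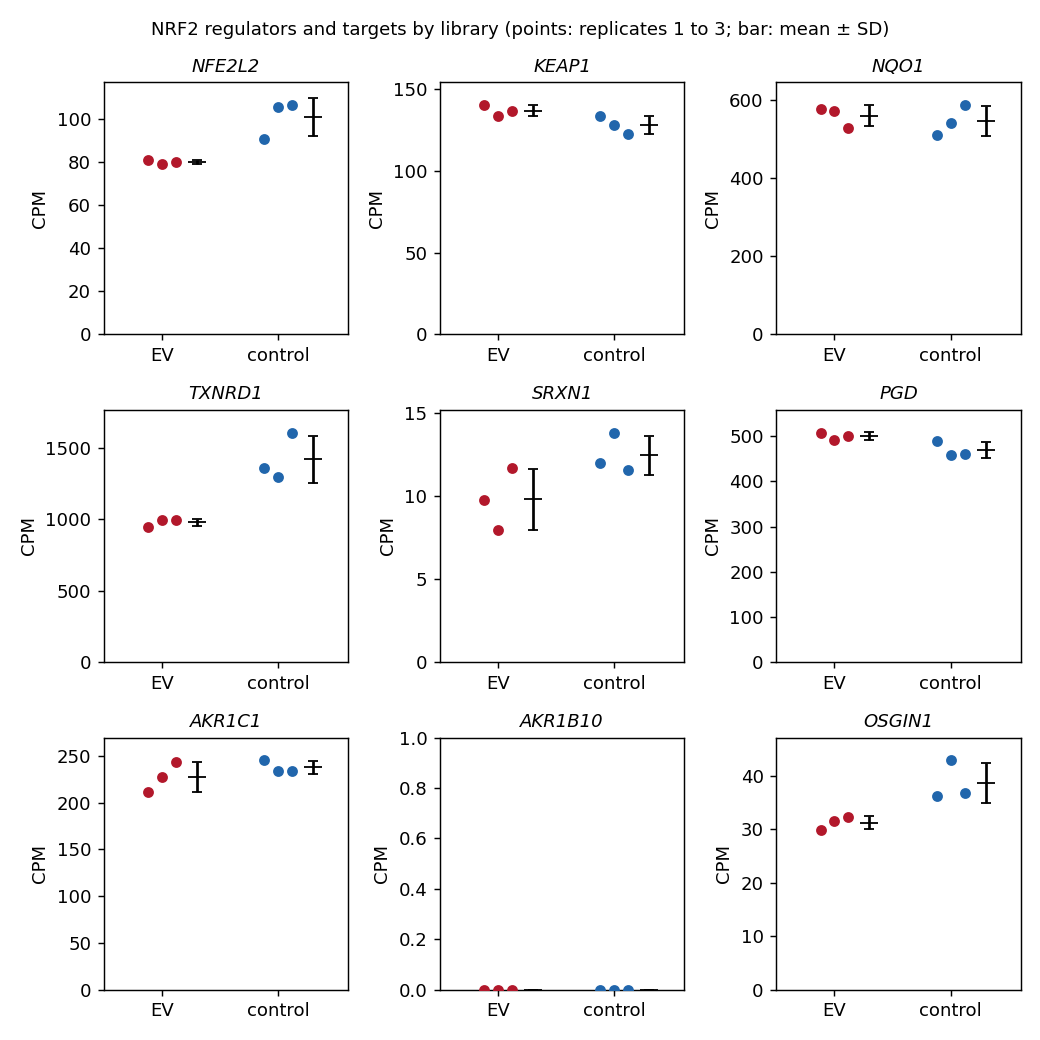
CPM of the 9 members in each library (points, replicates 1 to 3 from left to right) with mean ± SD, EV libraries on the left and control libraries on the right of each panel, and each vertical axis starting at 0. NFE2L2, TXNRD1 and OSGIN1 points of the EV group lie below every control point, those of SRXN1 overlap, and AKR1B10 is at 0.

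NFE2L2 was at 81.1, 79.0 and 80.0 CPM in EV libraries and at 90.8, 106 and 106 CPM in control libraries. All EV libraries lay below all controls and within a narrow band, while control replicate 1 stood below the other controls. The means were 80.0 ± 1.06 CPM in EV libraries and 101 ± 8.73 CPM in control libraries (n = 3 each, ± SD). The log2 fold change was -0.33 ± 0.07 (SE; edgeR quasi-likelihood test, adjusted p = 0.000489), which is 1.26-fold lower. Leaving out control replicate 1 gave -0.40, and without control replicate 3 it was -0.30. A sense-overlapping locus shares 17.6% of the NFE2L2 exon length in GENCODE, but held 178 counts over all 6 libraries.

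KEAP1 was at 140, 133 and 136 CPM in EV libraries and at 133, 128 and 122 CPM in control libraries. The groups overlapped slightly, since control replicate 1 was just above the lowest EV library. The log2 fold change was 0.10 ± 0.06 (adjusted p = 0.201), with a 95% interval from -0.03 to 0.22, so neither a small rise nor no difference can be told from these libraries.

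The ratio of KEAP1 to NFE2L2 counts within a library does not depend on the scaling between libraries. It was 1.72, 1.68 and 1.70 in EV libraries, against 1.47, 1.21 and 1.15 in control libraries, with no overlap. The log2 ratio was 0.43 higher in EV libraries (exact permutation test, two-sided, p = 0.1, which is the smallest p that 3 against 3 libraries allow). Over the 5 ratios computed, the Benjamini-Hochberg adjusted value was 0.125 (exact permutation test).

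Other regulators moved in both directions. Of 12 listed regulators and partners, all tested, 7 fell and 2 rose, so that 75% were called, beside 40.9% of all tested genes. Their median log2 fold change was -0.24, against -0.01 over all genes. The list, like those below, was chosen with earlier results of these data known, so its share called is a description only. MAFF, a small MAF partner of NRF2, was at 22.1, 17.7 and 19.4 CPM in EV libraries against 38.4, 46.5 and 40.9 CPM in control libraries (log2 fold change -1.08 ± 0.09, adjusted p = 2.77e-08). It was 2.12-fold lower, the largest change of this list. MAFK, a second partner, fell too (-0.40 ± 0.07), whereas MAFG, the remaining one, was at -0.16 ± 0.06 and missed the threshold (adjusted p = 0.0502).

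BACH1, which represses many NRF2 targets by occupying the same elements, was at 51.5, 54.0 and 53.7 CPM in EV libraries and at 75.1, 71.8 and 79.5 CPM in control libraries (-0.51 ± 0.06, adjusted p = 3.8e-06). The factor and this repressor were thus both lower. The ratio of BACH1 to NFE2L2 counts was 0.635, 0.684 and 0.671 in EV libraries against 0.827, 0.680 and 0.748 in control libraries, where the groups overlapped (exact permutation p = 0.2).

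NFE2L1, which encodes the related factor NRF1 that drives proteasome genes, was at 202, 194 and 213 CPM in EV libraries and at 321, 341 and 326 CPM in control libraries (-0.70 ± 0.06, adjusted p = 2.72e-08). Relative to NFE2L2 it had a count ratio of 2.49, 2.46 and 2.67 in EV libraries against 3.53, 3.23 and 3.06 in control libraries, again without overlap (exact permutation p = 0.1). NFE2L3, the other relative, was at -0.18 ± 0.06 (adjusted p = 0.024).

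The genes of the ligase that KEAP1 joins were higher. CUL3, its scaffold, was at 113, 130 and 128 CPM in EV libraries against 98.2, 95.1 and 94.3 CPM in control libraries (0.37 ± 0.06). RBX1, its RING subunit, was at 33.2, 32.4 and 30.8 CPM in EV libraries against 22.5, 20.8 and 20.6 CPM in control libraries (0.60 ± 0.08). SQSTM1, the autophagy receptor p62 that sequesters KEAP1 and is itself a target, fell (-0.30 ± 0.06), as did SYVN1, an endoplasmic reticulum ligase reported to act on NRF2 (-0.36 ± 0.07). BTRC and DPP3 did not pass.

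TXNRD1 encodes the cytosolic thioredoxin reductase, a selenoenzyme that uses NADPH to recycle thioredoxin. It was at 947, 993 and 992 CPM in EV libraries and at 1362, 1293 and 1605 CPM in control libraries. The groups were far apart, and control replicate 3 was the highest. The means were 978 ± 26.3 CPM in EV libraries and 1420 ± 164 CPM in control libraries (n = 3 each, ± SD). The log2 fold change was -0.54 ± 0.07 (edgeR, adjusted p = 6e-06), so that the level fell by 31.2%. Without control replicate 3 the value was -0.44 and it still passed.

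This was the largest change among the members but not a rare size in these data. Of all tested genes, 8.43% were called lower by at least as much, and 11.0% had a log2 fold change at or below it. Libraries of the EV and control groups did not overlap for 4 of the 8 tested members (NFE2L2, TXNRD1, OSGIN1 and PGD), beside 50.6% of all tested genes.

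TXN, thioredoxin itself and the substrate of that reductase, moved the other way: 214, 231 and 213 CPM in EV libraries against 189, 195 and 197 CPM in control libraries (0.18 ± 0.06, adjusted p = 0.0166). With EV replicate 2 left out it no longer passed (0.14, adjusted p = 0.11), nor with control replicate 1 left out (0.16, adjusted p = 0.0535). The ratio of TXNRD1 to TXN counts was 4.43, 4.29 and 4.66 in EV libraries against 7.21, 6.62 and 8.16 in control libraries, a difference of -0.71 in the log2 ratio (exact permutation p = 0.1). Groups overlapped for neither gene and the genes moved in opposite directions, so this ratio had to separate the groups and adds no support. The peroxiredoxin genes PRDX1 and PRDX6, which use or accompany that system, were at 0.11 and 0.13 on the log2 scale and did not pass.

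SRXN1 encodes sulfiredoxin, which restores overoxidised peroxiredoxins. It was at 9.76, 7.98 and 11.7 CPM in EV libraries and at 12.0, 13.8 and 11.6 CPM in control libraries, from 174 to 291 counts in EV libraries and 280 to 378 counts in control libraries. EV replicate 3 lay above control replicate 3, so the groups overlapped. The log2 fold change was -0.34 ± 0.12 (adjusted p = 0.0335), and 3 of the 6 libraries each carried the call. Leaving out EV replicate 1 gave -0.33 (adjusted p = 0.0899), leaving out EV replicate 2 gave -0.22 (adjusted p = 0.194), and leaving out control replicate 2 gave -0.26 (adjusted p = 0.139). In the authors' deposited table SRXN1 has a q-value of 0.0732. A locus without its own symbol shares 85.0% of SRXN1 exon length but held 41 counts in all, and summing both gave -0.34.

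NQO1, the quinone reductase most often read as an NRF2 target, was at 578, 573 and 529 CPM in EV libraries and at 510, 542 and 587 CPM in control libraries. The highest value of all was a control and the lowest was a control too, so the groups were interleaved. The log2 fold change was 0.04 ± 0.06 (adjusted p = 0.681), with a 95% interval from -0.09 to 0.17. Set against it within each library, TXNRD1 had a count ratio of 1.64, 1.73 and 1.88 in EV libraries and of 2.67, 2.38 and 2.74 in control libraries. That is a difference of -0.57 in the log2 ratio with no overlap (exact permutation p = 0.1).

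PGD, the second NADPH-producing enzyme of the pentose phosphate pathway, was at 508, 491 and 502 CPM in EV libraries and at 489, 459 and 460 CPM in control libraries. EV libraries lay above all controls, yet the lowest EV value and control replicate 1 nearly met. The log2 fold change was 0.09 ± 0.06 (adjusted p = 0.196; 95% interval -0.02 to 0.21).

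AKR1C1, an aldo-keto reductase of steroids and lipid aldehydes, was at 212, 228 and 243 CPM in EV libraries and at 245, 234 and 234 CPM in control libraries, overlapping (-0.06 ± 0.06, adjusted p = 0.434; 95% interval -0.19 to 0.06). AKR1C2 and AKR1C3 are close copies and reads may be split among them, so the 3 are uncertain as single genes. AKR1C2 averaged 0.600 ± 0.0436 CPM in EV libraries and 0.774 ± 0.252 CPM in control libraries (SD, n = 3 each), AKR1C3 stayed below 0.3 CPM, and the sum of the 3 gave -0.06. AKR1B10, a retinaldehyde reductase and a strong NRF2 target in lung tumours, had 0 counts in all 6 libraries, as had its copy AKR1B15. A count of 0 allows up to 0.111 to 0.139 CPM in EV libraries and 0.109 to 0.127 CPM in control libraries.

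OSGIN1, an oxidative stress induced growth inhibitor, was at 29.9, 31.6 and 32.2 CPM in EV libraries and at 36.2, 42.9 and 36.9 CPM in control libraries. All EV libraries were lower, and control replicate 2 was the highest. The means were 31.3 ± 1.20 CPM in EV libraries and 38.7 ± 3.67 CPM in control libraries (SD, n = 3 each), with a log2 fold change of -0.31 ± 0.08 (adjusted p = 0.00358). Without control replicate 2 it was -0.23 and still passed (adjusted p = 0.0286).

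Levels of different genes were compared per kilobase of exon. In EV libraries the order was NQO1 (172 ± 8.28 CPM per kb), PGD (169 ± 2.77), TXNRD1 (146 ± 3.92), KEAP1 (36.3 ± 0.908), AKR1C1 (26.0 ± 1.81), NFE2L2 (13.4 ± 0.177), OSGIN1 (9.03 ± 0.346) and SRXN1 (3.64 ± 0.689). In control libraries TXNRD1 came first at 212 ± 24.5 CPM per kb, ahead of NQO1 (168 ± 11.8) and PGD (158 ± 5.86), and the order of the other 5 was the same. NQO1 and PGD did not differ beyond their SD in either group, while all other neighbours in each order did. These levels use merged exons, which makes genes with long rare exons look lower.

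**Figure D2:**
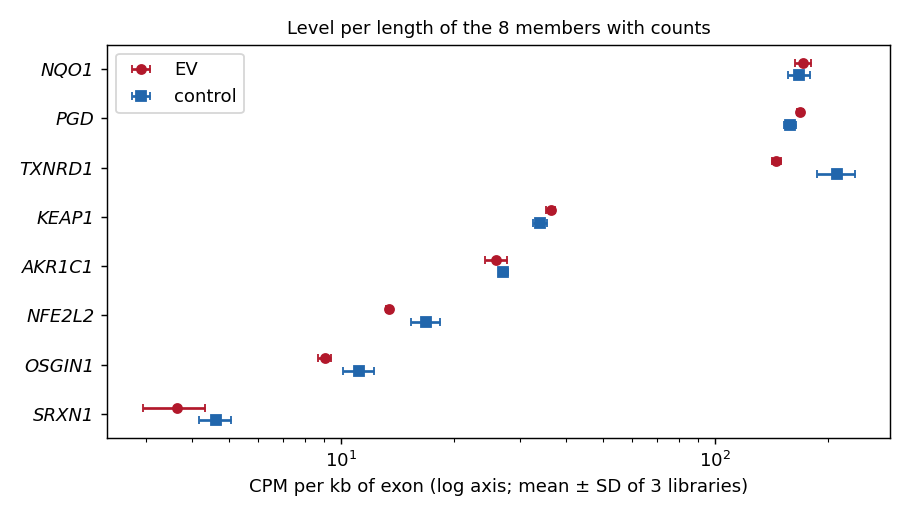
Mean level per kilobase of exon of the 8 members with counts (log axis; bars are SD over 3 libraries), EV as circles above control as squares. TXNRD1 stands below NQO1 and PGD in EV libraries at 146 CPM per kb and above both in control libraries at 212 CPM per kb.

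Beyond the members, 53 other NRF2 pathway genes were listed by role, of which 52 were in the table and 49 tested. In EV libraries 13 rose, 17 fell and 19 did not pass, so that 61.2% were called, with a median log2 fold change of -0.04. Without the regulators described above, 11 rose and 10 fell of 37 tested (median -0.02). The called genes were thus split between directions, beside 20.2% of all tested genes called higher and 20.7% called lower.

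In the glutathione list 2 genes rose, 3 fell and 3 did not pass of 8 tested, so that 62.5% were called, beside 40.9% of all tested genes. SLC7A11, the cystine transporter subunit, was at 13.5, 13.4 and 13.6 CPM in EV libraries against 46.4, 42.2 and 54.9 CPM in control libraries, 3.55-fold lower (-1.83 ± 0.09, adjusted p = 3.91e-11). This gene is also a target of ATF4. The subunits of glutamate-cysteine ligase, the first step of glutathione synthesis and the usual NRF2 readout of this list, did not pass: GCLC was at -0.08 ± 0.09 and GCLM at -0.14 ± 0.06 (adjusted p = 0.0784). GSR, glutathione reductase, rose (0.33 ± 0.06), and GSTM1, a glutathione transferase with close copies, fell (-0.50 ± 0.12).

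Of 5 other NADPH genes, 1 rose, 2 fell and 2 did not pass, so that 60% were called, beside 40.9% of all tested genes. IDH1, the cytosolic isocitrate dehydrogenase, rose (0.46 ± 0.06). It was at 145, 139 and 140 CPM in EV libraries, against 100, 97.1 and 111 CPM in control libraries. ME1, the cytosolic malic enzyme, fell to 31.9, 31.3 and 31.8 CPM in EV libraries, against 40.9, 44.4 and 47.4 CPM in control libraries (-0.48 ± 0.07). TKT, transketolase, was lower by a small amount (-0.16 ± 0.06, adjusted p = 0.0279) and did not pass when EV replicate 2 (adjusted p = 0.128), EV replicate 3 (adjusted p = 0.081) or control replicate 1 (adjusted p = 0.109) was left out. Without the count filter it did not pass either (adjusted p = 0.0508), and in the authors' deposited table its q-value is 0.0647. TALDO1, transaldolase, was at -0.03 ± 0.06 and did not pass.

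Of 11 tested reductase and detoxification genes 5 rose and 2 fell, so that 63.6% were called, beside 40.9% of all tested genes. The carbonyl reductase genes CBR1 (0.35 ± 0.06, adjusted p = 0.000157) and CBR3 (0.72 ± 0.16, adjusted p = 0.00175) were higher, the second at 5.99, 6.10 and 5.46 CPM in EV libraries against 2.87, 3.11 and 4.62 CPM in control libraries. CBR3 shares 42.2% of its exon length with an antisense gene, which held 93 counts over all 6 libraries. Without stated strand use, reads of the shared part cannot be told apart. ALDH3A1, an aldehyde dehydrogenase, was 2.19-fold lower at a low level (1.39 ± 0.254 CPM in EV libraries and 3.09 ± 0.641 CPM in control libraries; SD, n = 3 each).

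Of 5 haem and iron genes, 1 rose and 2 fell, so that 60% were called, beside 40.9% of all tested genes. FTH1, the ferritin heavy chain, fell to 914 ± 71.4 CPM in EV libraries, against 1225 ± 179 CPM in control libraries (-0.42 ± 0.08). FTL, the ferritin light chain, was at 4569 ± 251 CPM in EV libraries and 4921 ± 316 CPM in control libraries. It did not pass (-0.11 ± 0.06, edgeR, adjusted p = 0.175), and neither did BLVRB (-0.08 ± 0.06). HMOX1, haem oxygenase, was at 26.1, 25.2 and 29.3 CPM in EV libraries against 29.6, 41.1 and 34.9 CPM in control libraries (-0.39 ± 0.10, adjusted p = 0.00367). Its highest EV and lowest control libraries nearly met. SLC48A1, a haem transporter, rose (0.28 ± 0.09, adjusted p = 0.0182), but not without EV replicate 1 (adjusted p = 0.0649), EV replicate 3 (adjusted p = 0.0602) or control replicate 3 (0.19, adjusted p = 0.0963).

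Of 5 efflux pumps of glutathione conjugates and drugs, 1 rose and 1 fell. The share called was thus 40%, beside 40.9% of all tested genes. ABCC3 fell (-0.83 ± 0.16, at 3.04 CPM in EV libraries and 5.40 CPM in control libraries) and ABCC5 rose (0.38 ± 0.07). ABCC1, ABCC2 and ABCG2 did not pass.

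**Figure D3:**
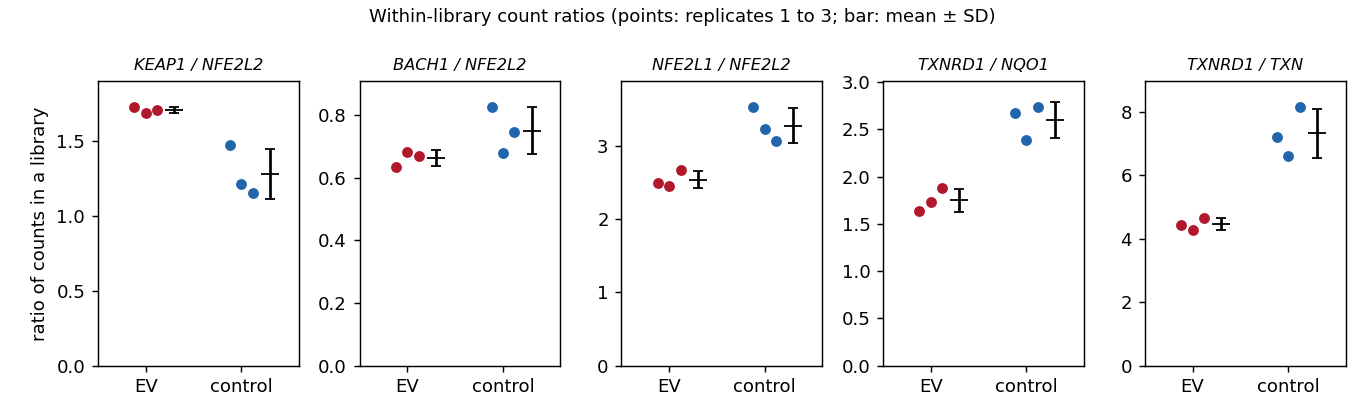
Ratio of the counts of 2 genes within each library (points, replicates 1 to 3) with mean ± SD, EV left and control right, each axis starting at 0. KEAP1 to NFE2L2 is higher in every EV library (1.68 to 1.72) than in the control libraries (1.15 to 1.47), TXNRD1 to NQO1, TXNRD1 to TXN and NFE2L1 to NFE2L2 are lower without overlap, and BACH1 to NFE2L2 overlaps.

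Genes with a pattern most like NFE2L2 over the 6 libraries were sought by the root mean square difference of centred log2 CPM, among 9013 genes of at least 10 CPM. PHLDA1 (0.0267), PPP1R35 (0.0286) and STAMBPL1 (0.0309) came closest, where the median gene was at 0.217. PHLDA1, for example, was at 223, 219 and 214 CPM in EV libraries against 256, 283 and 288 CPM in control libraries, with control replicate 1 the lowest control as for NFE2L2. For TXNRD1 the closest were SLC20A1, a phosphate transporter gene (0.0257), BCL2L11 (0.0361) and HERPUD2-AS1 (0.0422). SLC20A1 was at 427, 431 and 440 CPM in EV libraries against 586, 584 and 707 CPM in control libraries. All these genes share the same 6 libraries in 2 groups, so the likeness is a description only.

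The authors' deposited table gives control over EV, with a positive sign where controls are higher. With its sign turned, the authors' deposited table gives log2 fold changes of -0.52 for TXNRD1, -0.32 for NFE2L2 and -0.29 for OSGIN1. Their q-values there are 8.87e-10, 0.000187 and 0.00403. None of the 8 members it lists is marked as up or down. NFE2L1 has no mark either, at -0.68 and a q-value of 1.63e-23, so a missing mark does not mean a high q-value. The authors' deposited table rests on the same libraries.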

How the data were processed

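The authors deposited a raw count table (32453 features, 6 libraries) and a table of their own comparison. In that deposited table the group means and the log2 fold change are on a log2 scale, and p-values and q-values stand beside them. TopHat, RSEM and hg19 appear, without versions, in the submitters' processing notes. Annotation release and strand use in counting are not stated there or in the labels. Left out were the 375 features without a gene name (0.0990% to 0.134% of a library's counts).

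The counts were fitted with edgeR 4.0.16 in R 4.3.3 (quasi-likelihood test, TMM factors, filterByExpr, Benjamini-Hochberg adjustment over all genes tested). The test was run on simulated data with far fewer genes changed than were called here, so that check does not cover change this widespread. A gene was called at an adjusted p under 0.05. CPM are counts over the TMM-scaled library size, and fold changes use a prior count of 0.125. Exon lengths are those of GENCODE release 29, with the exons of all transcripts of a gene merged, and were found for 31123 of 32078 genes. Alternatives were 3 other scalings, 2 other filters, each library left out, a replicate block, limma-voom 3.58.1, DESeq2 1.42.0, unnamed loci kept, a threshold of 0.01, and paralogs summed. Summing SRXN1 with its overlapping locus was added after the data were seen.

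The 9 members and all lists were chosen with earlier results of these data known. Named besides the members were up to 3 called genes of each list with the lowest adjusted p, the paralogs of members, SLC7A11 and HMOX1, and 3 genes each with the pattern most like NFE2L2 and TXNRD1. Other names were chosen after their values were seen. Some listed genes entered the tests and counts without being named.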

Additional observations from a re-analysis of the deposited data

How the results depend on the processing

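The number of members called was 4 under each alternative that scaled, filtered or tested the counts differently (median-ratio, upper-quartile and total scaling, both filters, limma-voom, DESeq2, unnamed loci kept, replicate block), and 3 to 4 with a library left out. SRXN1 was the member lost, also at a threshold of 0.01. NFE2L2, TXNRD1 and OSGIN1 kept their call under all 16 alternatives. With a library left out NQO1 ran from -0.011 (without control replicate 1, adjusted p = 0.916) to 0.089, and it was not called under any alternative. Across alternatives 24 to 31 other pathway genes and 4093 to 6088 of all genes were called.

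The shared replicate numbers were not taken as pairs: deviations of same-numbered EV and control libraries correlated at -0.02, -0.01 and -0.01, and none correlated best with its own number. With the replicate block 5743 genes were called, against 6001 without it, and the same 4 members. Summing AKR1B10 with AKR1B15 gave no value, because both had no counts.

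With 3 libraries a group, the 95% intervals of the uncalled members reached from -0.19 (AKR1C1) to 0.22 (KEAP1) on the log2 scale, and ratios could not reach a p under 0.1 in an exact permutation test.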
